A study of Mus musculus with 6 samples.

Results

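Immediate early and heat shock genes were followed across the jejunal epithelium of the mouse. The set held 10 of the 32285 genes in the files: Fos, Fosb, Jun, Junb, Egr1, Ier2, Dusp1, Zfp36, Hspa1a and Hspa1b, taken by symbol because cell isolation often raises them. All 10 had UMIs (unique molecular identifiers, each standing for 1 captured transcript) in enterocyte-like cells of all 6 libraries. The rule itself uses symbols and no measured value.

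Immediate early genes are transcribed within minutes of a stimulus from factors already present in the cell, through kinase cascades that act on serum response factor, its ternary complex partners and CREB. Fos and Jun family proteins pair to form the transcription factor AP-1, while Dusp1 and Zfp36 feed back on the response, the first by dephosphorylating MAP kinases and the second by promoting decay of AU-rich mRNAs. Hspa1a and Hspa1b encode the inducible Hsp70 chaperone and are switched on by heat shock factor 1 when unfolded protein accumulates. In intestinal epithelium both programs are known to answer feeding, injury and renewal signals, and also warming, enzyme digestion and detachment during the making of single-cell suspensions.

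The cells came from male wild-type C57BL/6J mice of about 30 weeks, kept for 16 weeks on their diet before surgery and returned to it afterwards, and the tissue was taken after an overnight fast 5 weeks after surgery. The groups were low-fat diet with sham surgery (LFD sham, 3 mice pooled), high-fat diet with sham surgery (HFD sham, 3 mice pooled) and high-fat diet with vertical sleeve gastrectomy, the removal of most of the stomach along its greater curve (HFD VSG, 2 mice pooled). The jejunum of each mouse was treated apart: cells were released with EDTA and by scraping, divided over a strainer into a crypt and a villus preparation and digested with dispase. Only then were the crypt cells, and the villus cells, of the mice of a group pooled and loaded as separate 3′ single-cell libraries. Each group in each preparation was therefore 1 library, so diet and surgery could not be tested against the spread between pools and carry no p-value. The preparations could, since each of the 3 pools gave both. Limits printed in square brackets are exact 95% limits that cover counting error only.

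The libraries held 60522766 to 155522445 UMIs in 7765 to 12012 called barcodes, of which 2887 to 4637 per library passed the filters (23573 of 59457 in all). Between 17 and 43 called barcodes were shared by each pair of libraries. Clusters were formed without the 10 members and without the wider gene lists used below, and were named from fixed markers. Enterocyte-like cells were 5 clusters, led by Cyp2c29 and Sult6b2 (cluster 0), Plb1 and Fabp6 (cluster 3), Reg3b and Reg3g (cluster 4), Ada and Nt5e (cluster 9) and Ifit1 and Isg15 (cluster 13), while 5 further clusters had no name and are called by number. Cluster 2 (2803 cells) carried 10 of 12 enterocyte markers. It was left unnamed because Gm42418 and Lars2, taken as signs of damage, were among its 10 leading genes. The enterocyte-like values below therefore leave it out. The marker content went against the names of the preparations: stem-like cells numbered 42, 44 and 126 in the crypt-labelled libraries of LFD sham, HFD sham and HFD VSG and 227, 90 and 386 in the villus-labelled ones. Immune-like cells numbered 127, 76 and 74 in the crypt-labelled and 585, 7 and 472 in the villus-labelled libraries in the same order. The preparations are therefore called crypt-labelled and villus-labelled throughout.

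The 2 heat shock genes lie side by side on chromosome 17 of GRCm38, Hspa1a at 34969190 to 34972156 and Hspa1b at 34956436 to 34959238, both on the minus strand. Dusp1 (26505590 to 26562128, minus strand) is on the same chromosome. Fosb (19302696 to 19310051) and Zfp36 (28376784 to 28380253) lie on the minus strand of chromosome 7, and Junb (84974484 to 84978718) and Ier2 (84661331 to 84662852) on that of chromosome 8. Fos lies on the plus strand of chromosome 12 (85473890 to 85477273) and Jun on the minus strand of chromosome 4 (95049034 to 95052222).

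The 250 bases before the start site are shown for 4 of the 8 members whose promoters were matched in RefSeq (GRCm38.p6). The gene spans above are those of GENCODE, and the Dusp1 and Zfp36 windows lie inside the spans given for these genes. The heat shock pair is shown because its UMIs moved together in the libraries, and Dusp1 and Zfp36 because the capitals there mark the elements through which CREB and serum response factor act. Capitals mark the heat shock element unit pair GAANNTTC in Hspa1a (chr17:34972157-34972406) and Hspa1b (chr17:34959239-34959488), the cAMP response element in Dusp1 (chr17:26508473-26508722) and the serum response element core (CArG box) in Zfp36 (chr7:28379229-28379478), all read 5′ to 3′ along the minus strand.
Hspa1a: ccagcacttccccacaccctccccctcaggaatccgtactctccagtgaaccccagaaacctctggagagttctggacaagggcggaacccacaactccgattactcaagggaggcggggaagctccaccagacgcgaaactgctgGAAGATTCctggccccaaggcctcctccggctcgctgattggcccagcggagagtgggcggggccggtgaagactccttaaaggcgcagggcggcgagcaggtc
Hspa1b: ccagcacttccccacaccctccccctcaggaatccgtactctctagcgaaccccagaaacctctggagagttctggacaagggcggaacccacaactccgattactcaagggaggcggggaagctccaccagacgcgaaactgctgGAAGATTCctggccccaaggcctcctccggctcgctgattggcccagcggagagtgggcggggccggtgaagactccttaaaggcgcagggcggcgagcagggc
Dusp1: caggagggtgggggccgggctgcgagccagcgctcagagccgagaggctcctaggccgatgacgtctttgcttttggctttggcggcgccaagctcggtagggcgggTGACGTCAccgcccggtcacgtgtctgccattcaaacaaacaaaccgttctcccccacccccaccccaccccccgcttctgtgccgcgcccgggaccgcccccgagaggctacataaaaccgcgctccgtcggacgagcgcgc
Zfp36: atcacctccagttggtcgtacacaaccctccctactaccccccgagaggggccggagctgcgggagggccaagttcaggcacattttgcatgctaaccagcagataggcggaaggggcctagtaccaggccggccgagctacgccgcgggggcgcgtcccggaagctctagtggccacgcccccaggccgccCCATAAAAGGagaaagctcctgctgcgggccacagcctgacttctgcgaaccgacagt

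The Hspa1a and Hspa1b promoters were identical at 98.8% of the 250 bases, and each held GAANNTTC from 104 to 97 bases and CCAAT from 67 to 63 bases before the start. Both strands were searched. GAANNTTC was also found in Jun, from 128 to 121 bases before its start, and in 6.72% of 32536 RefSeq promoters of the same length. TGACGTCA lay 143 to 136 bases before the Dusp1 start (1.56% of promoters) and the CArG box 58 to 49 bases before the Zfp36 start (1.48% of promoters). TATAAA was found in Fos alone among the 8 matched members, from 33 to 28 bases before the start (12.3% of promoters), and CCAAT in Jun and Junb besides the heat shock pair (33.8% of promoters). The AP-1 letters TGANTCA were in none of the 8 (6.73% of promoters). A match of letters is a description of the window and not a measured binding site.

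The transcripts of the heat shock pair also share sequence: 49.3% of the windows of 90 bases in Hspa1a recur in Hspa1b. The shared windows end 856 bases before the Hspa1a and 692 bases before the Hspa1b transcript end, and the last 300 bases are identical at 56.7% of positions, so reads from the 3′ end can be told apart and some of those from further inside cannot.

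Levels are given as CPM, the UMIs of a gene for every 1000000 UMIs summed over the cells of a class in a library. Droplets with under 100 UMIs, which hold free RNA rather than cells, give the level of the same gene in the surrounding fluid. Fos, the partner subunit that lends AP-1 its inducibility, stood in enterocyte-like cells at 833, 807 and 859 CPM in the crypt-labelled libraries of LFD sham, HFD sham and HFD VSG and at 509, 695 and 482 CPM in the villus-labelled libraries in the same order. All 3 crypt-labelled values lay above all 3 villus-labelled values. The droplets held 514, 385 and 486 CPM in the crypt-labelled and 277, 263 and 339 CPM in the villus-labelled libraries, and the enterocyte-like level was 1.42 to 2.64 times that of its own droplets.

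**Figure D1:**
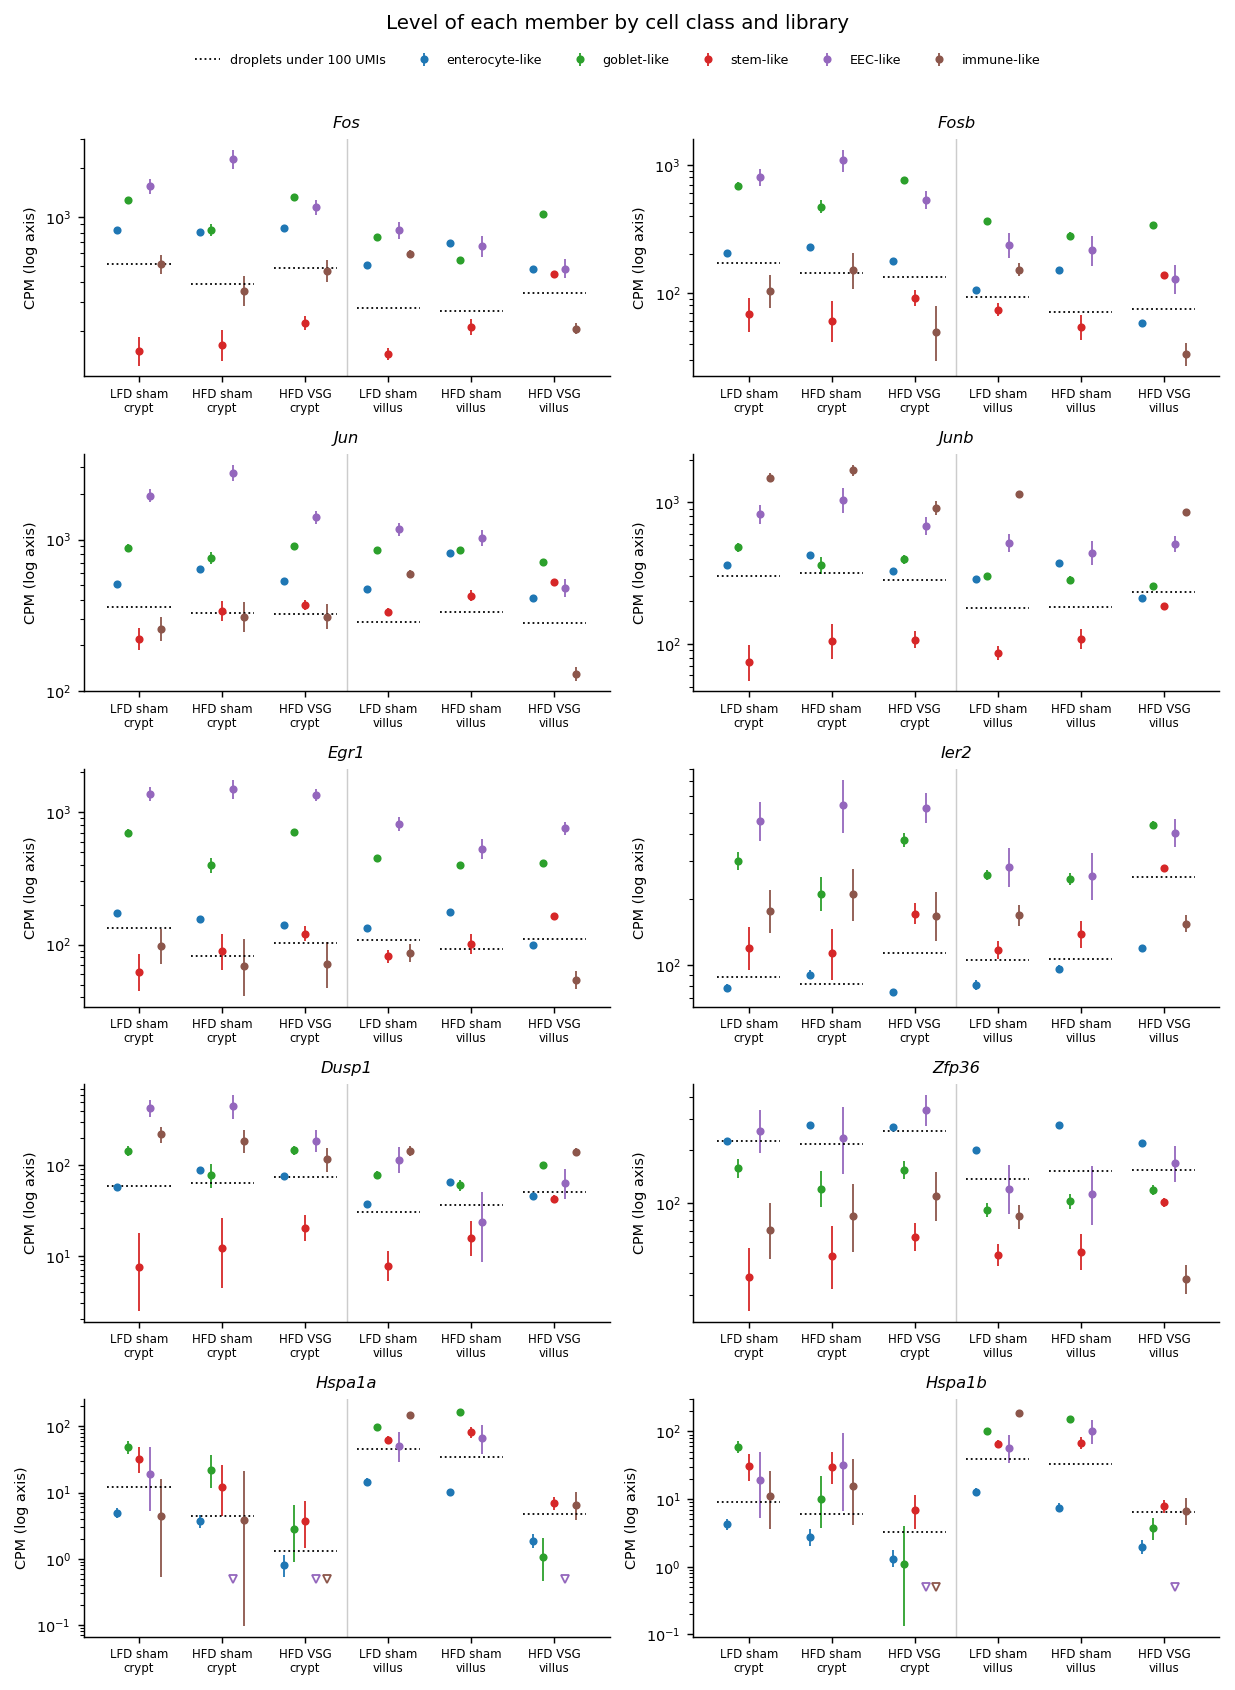
Level in CPM (log axis) of each of the 10 genes in 6 libraries, 1 panel per gene, with points for enterocyte-, goblet-, stem-, EEC- and immune-like cells and bars for exact 95% Poisson limits. Dotted lines give droplets with under 100 UMIs, open triangles mark classes with no UMI, and immune-like cells of HFD sham villi (7 cells) are left out. Egr1 is highest in EEC-like cells in every library, and within each preparation Hspa1a and Hspa1b are lowest in HFD VSG in enterocyte-, goblet- and stem-like cells.

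Across classes, Fos was high in goblet-like cells (1262, 831 and 1322 CPM in the crypt-labelled and 756, 545 and 1043 CPM in the villus-labelled libraries) and in enteroendocrine-like (EEC-like) cells, which make gut hormones. The EEC-like sums rest on 20 to 39 cells per library and stood at 1536, 2257 and 1143 CPM in the crypt-labelled and 827, 660 and 481 CPM in the villus-labelled libraries. In the LFD sham villus-labelled library the EEC-like limits [733, 930] took in the goblet-like level of 756 CPM, so these neighbours in the order did not differ beyond counting error. Stem-like cells, which carry Lgr5 and Olfm4, held 150, 164 and 223 CPM in the crypt-labelled and 145, 211 and 443 CPM in the villus-labelled libraries. That was lower than in enterocyte-like cells beyond counting error in all 6 libraries and below the droplets in 5 of 6.

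The class order was not the same for each of the other AP-1 subunits. Fosb, a close relative of Fos, reached 687, 472 and 764 CPM in crypt-labelled and 364, 280 and 336 CPM in villus-labelled goblet-like cells, against 206, 227 and 178 CPM and 105, 151 and 57.9 CPM in enterocyte-like cells. Goblet-like cells were therefore above enterocyte-like cells in 6 of 6 libraries, with a median log2 ratio of 1.76. EEC-like cells held Fosb at 128 to 1086 CPM, with a median over libraries of 387 CPM next to 418 CPM in goblet-like cells. This order was near that of Fos. Jun, the subunit that can also pair with itself, held 508, 636 and 531 CPM in crypt-labelled and 468, 814 and 409 CPM in villus-labelled enterocyte-like cells, and was higher in EEC-like cells in all 6 libraries (median log2 ratio 1.36). Junb, which lacks much of the activating power of Jun, had its highest level among the named classes in immune-like cells in 5 of 6 libraries. There it stood at 1495, 1687 and 914 CPM in the crypt-labelled libraries and at 1144 and 856 CPM in the villus-labelled libraries of LFD sham and HFD VSG, a median log2 ratio of 2.00 to enterocyte-like cells (361, 429 and 331 CPM, then 287, 372 and 210 CPM).

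Egr1, a zinc finger activator driven by serum response factor, and Ier2, a small nuclear protein, were both highest outside the enterocytes. EEC-like cells held Egr1 at 1373, 1491 and 1343 CPM in the crypt-labelled and 815, 527 and 756 CPM in the villus-labelled libraries, the highest of the named classes in 6 of 6 libraries. Goblet-like cells followed with 398 to 708 CPM, and enterocyte-like cells held 99.5 to 177 CPM. Ier2 was the only member of the 8 immediate early genes that stood higher in stem-like than in enterocyte-like cells in most libraries, beyond counting error in 5 of 6 and with a median log2 ratio of 0.58. Its enterocyte-like levels of 78.0, 90.1 and 74.8 CPM (crypt-labelled) and 80.6, 95.4 and 120 CPM (villus-labelled) were in no library above the droplets beyond counting error and in 3 of 6 below them, the droplets holding 81.8 to 254 CPM. A level equal to that of the droplets does not make the UMIs of the cells free RNA. The study states a fraction of free RNA for each library, highest in HFD sham crypts and next highest in HFD sham villi. These fractions were not tested here. At these stated fractions the droplets would account for 3.39% to 25.3% of the enterocyte-like Ier2 UMIs.

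The feedback genes differed from each other in their class order. Dusp1 was highest in EEC-like cells of the crypt-labelled libraries (431, 447 and 186 CPM), but in the villus-labelled libraries EEC-like cells held only 116, 23.4 and 63.0 CPM, and immune-like cells were highest in LFD sham (144 CPM) and HFD VSG (142 CPM) and enterocyte-like cells in HFD sham. Enterocyte-like Dusp1 stood at 58.1, 88.1 and 75.4 CPM in crypt-labelled and 36.9, 65.8 and 46.1 CPM in villus-labelled libraries. In stem-like cells it reached only 7.59 to 42.9 CPM, below the droplets in 6 of 6 libraries. Zfp36 was highest in enterocyte-like cells in 4 of 6 libraries and in EEC-like cells in the others, and enterocyte-like cells held 227, 280 and 272 CPM in crypt-labelled and 200, 279 and 220 CPM in villus-labelled libraries. Goblet-like cells were lower in 6 of 6 libraries (91.4 to 159 CPM, median log2 ratio -1.01), as were stem-like cells (38.0 to 102 CPM, median -2.23).

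The heat shock genes showed another order of classes and of libraries. In enterocyte-like cells Hspa1a stood at 4.95, 3.69 and 0.79 CPM in the crypt-labelled libraries of LFD sham, HFD sham and HFD VSG and at 14.5, 10.0 and 1.88 CPM in the villus-labelled ones. None of these levels was above that of the droplets (12.0, 4.36 and 1.31 CPM, then 46.1, 34.0 and 4.81 CPM), and 4 of 6 were below it beyond counting error. Enterocyte-like Hspa1b behaved alike, at 4.27, 2.74 and 1.32 CPM and at 12.9, 7.50 and 1.96 CPM, below the droplets in 6 of 6 libraries. Per UMI the pair was thus no more abundant in these cells than in the fluid. At the same fractions free RNA would account for 5.39% to 14.6% of the enterocyte-like Hspa1a UMIs in the LFD sham and HFD VSG libraries and for 33.0% and 55.9% in the crypt- and villus-labelled libraries of HFD sham, and for 6.33% to 13.9%, 61.1% and 72.5% of those of Hspa1b.

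Goblet-like cells, which secrete mucus, carried far more of the pair in the sham libraries. Their Hspa1a level was 48.5, 21.9 and 2.77 CPM in the crypt-labelled libraries of LFD sham, HFD sham and HFD VSG, from 74, 13 and 5 UMIs. In the villus-labelled libraries it was 98.8, 165 and 1.06 CPM, from 496, 599 and 8 UMIs. The HFD VSG levels were the lowest in both preparations, and goblet-like Hspa1a lay above the droplets beyond counting error in 4 of 6 libraries and below them in HFD VSG villi. Hspa1b followed at 59.6, 10.1 and 1.11 CPM and at 101, 152 and 3.70 CPM.

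Stem-like cells held Hspa1a at 31.9, 12.1 and 3.66 CPM in the crypt-labelled and 61.9, 80.6 and 6.92 CPM in the villus-labelled libraries, above the enterocyte-like cells beyond counting error in 6 of 6 libraries and above the droplets in 3 of 6. In EEC-like cells no Hspa1a UMI was found in either HFD VSG library, where 3 UMIs would have given 10.5 CPM (crypt-labelled) and 6.75 CPM (villus-labelled), nor in the HFD sham crypt-labelled library, where they would have given 31.9 CPM. Immune-like cells of the LFD sham villus-labelled library reached 147 CPM of Hspa1a and 190 CPM of Hspa1b, against 6.44 and 6.78 CPM in those of the HFD VSG villus-labelled library.

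The same order held in shares of cells after each cell was thinned to 3000 UMIs, with shallower cells left out. Among goblet-like cells, at least 1 Hspa1a UMI was kept in 7.92%, 5.00% and 0.680% of the 101, 60 and 147 cells used of the crypt-labelled libraries. In the villus-labelled libraries it was kept in 19.5% of 318 cells, 30.4% of 280 cells and 0 of 287 cells, the last with an upper limit of 1.28%. Without thinning the Hspa1a shares were 16.3%, 7.50% and 1.86%, then 32.8%, 48.1% and 2.05%, with median depths of 8479, 5338 and 11166, then 13454, 10573 and 25536 UMIs. The deepest goblet-like cells, those of HFD VSG villi, thus had the lowest share after thinning. Enterocyte-like cells, whose Hspa1a lay at or below the level of the droplets, gave thinned shares of 0.325% to 1.50% in crypt-labelled and 0.206% to 4.63% in villus-labelled libraries (unthinned 5.01%, 3.53% and 1.24%, then 12.2%, 8.53% and 3.08%), at median depths of 13218 to 34371 UMIs.

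**Figure D2:**
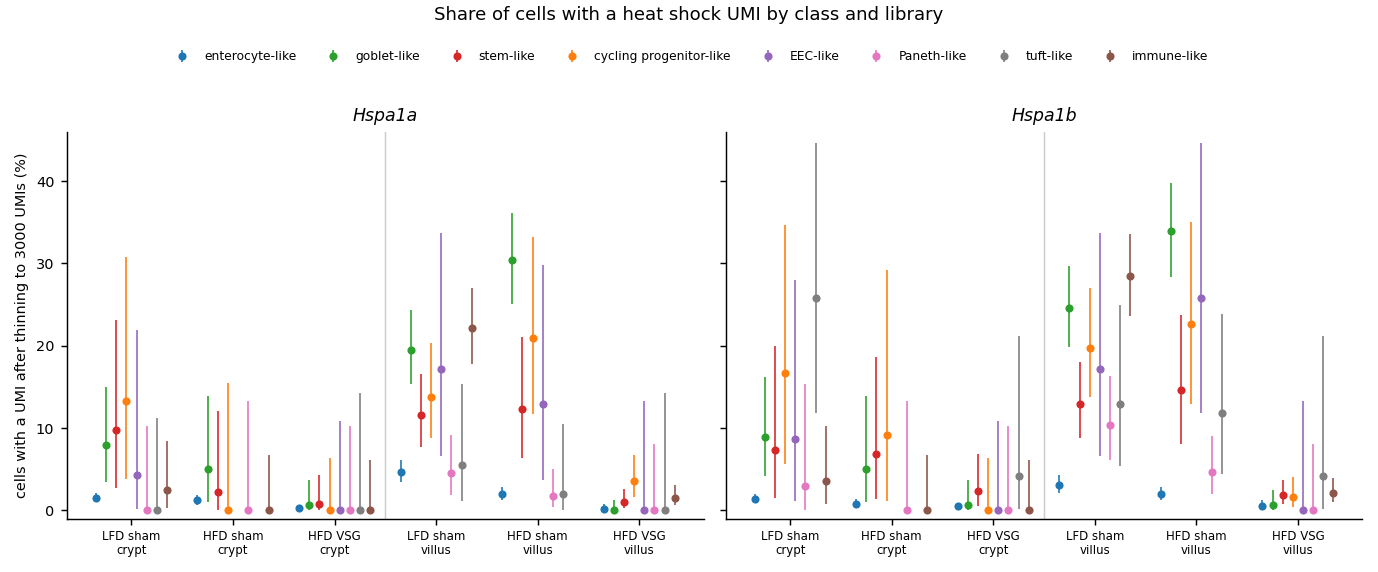
Percent of cells with at least 1 UMI of Hspa1a or Hspa1b after thinning each cell to 3000 UMIs, by library, for 8 named classes with exact 95% binomial limits. Goblet-like cells of HFD sham villi reach 30.4% for Hspa1a, and those of HFD VSG villi hold 0 of 287.

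Diet was compared first, as HFD sham against LFD sham within each preparation. Across all 10 genes and all classes with enough UMIs, 21 of 76 pairs of gene and class in the crypt-labelled comparison were more than 0.5 log2 units higher on the high-fat diet, against 5.94% of all gene and class pairs counted, and 10 were more than 0.5 lower, against 6.85%. In the villus-labelled comparison 24 of 92 were higher, against 7.02%, and 14 lower, against 6.62%. Heat shock pairs gave 2 of the 10 lower pairs in the crypt-labelled and 6 of the 14 in the villus-labelled comparison. Of these, 1 and 4 reached 50 UMIs in both libraries, and the others passed through LFD sham. Enterocyte-like cells held more of most immediate early genes on the high-fat diet, with 6 of 8 higher and 2 lower beyond counting error in the crypt-labelled pair (median log2 ratio 0.23), against 25.6% and 23.9% of all genes counted in these cells (at least 50 UMIs on average). In the villus-labelled pair 8 of 8 were higher (median 0.47), against 25.3% of all genes higher and 20.5% lower. Over all genes counted in enterocyte-like cells the medians were -0.00 and 0.01. Jun (log2 ratio 0.33 [0.29, 0.36] crypt-labelled and 0.80 [0.76, 0.84] villus-labelled) and Dusp1 (0.60 [0.50, 0.70] and 0.83 [0.69, 0.98]) showed it in both pairs. Jun was higher in 5 of 5 enterocyte-like clusters of the villus-labelled pair and in 4 of 5 of the crypt-labelled pair. Fos and Egr1 did not follow in the crypt-labelled pair, at -0.05 [-0.08, -0.02] and -0.14 [-0.21, -0.07], against 0.45 [0.41, 0.49] and 0.41 [0.33, 0.49] in the villus-labelled pair. These small crypt-labelled values turned to 0.20 and 0.09 with free RNA subtracted at the stated fractions, and that of Fos to 0.26 without cells over 10% mitochondrial UMIs. Cluster 2, which is outside this class, had none of the 8 higher and 6 lower in the crypt-labelled pair (median -0.31). Of the 5531 genes counted there, 853 were higher and 1196 lower. In the villus-labelled pair 2 of the 8 were higher and none lower in cluster 2 (median 0.02), against 973 and 384 of 4165 genes.

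Goblet-like cells went the other way from enterocyte-like cells. In the crypt-labelled pair all 8 immediate early genes were lower on the high-fat diet beyond counting error (median -0.52), against 7.68% of all genes counted in these cells lower and 6.96% higher (median -0.01), among them Fos (-0.60 [-0.75, -0.46]), Egr1 (-0.81 [-1.02, -0.61]) and Dusp1 (-0.90 [-1.39, -0.44]). With free RNA subtracted, 1 of the 8, Jun, turned to 0.04. In the villus-labelled pair 4 of 8 were lower, against 11.6% of all genes, and none higher, against 7.49%, Fos by -0.47 [-0.55, -0.39]. The goblet-like sums of the crypt-labelled pair rest on 135 and 80 cells with median depths of 8479 and 5338 UMIs, and the part of depth in this difference was not tested. Paneth-like cells, which make antimicrobial peptides, showed a direction that depended on the preparation, 7 of 8 higher (median 0.91) in the crypt-labelled pair, against 14.5% of all genes (median -0.02), and 8 of 8 lower (median -1.12) in the villus-labelled pair, against 11.6% (median 0.20). That class moved widely, with 22.2% of all genes lower in the crypt-labelled and 31.5% higher in the villus-labelled pair. Their median depth was 3048 and 24259 UMIs in the crypt-labelled LFD sham and HFD sham libraries and 51706.5 and 6784 UMIs in the villus-labelled ones, and its part in the difference was not tested.

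The heat shock pair was lower on the high-fat diet in enterocyte-like cells, Hspa1a at -0.43 [-0.86, -0.00] and -0.53 [-0.81, -0.25] and Hspa1b at -0.64 [-1.14, -0.16] and -0.78 [-1.09, -0.47] in the crypt- and villus-labelled pairs, at levels no higher than the droplets. With free RNA subtracted at the stated fractions the values were -0.47 and -1.29 for Hspa1a and -1.48 and -2.24 for Hspa1b. Within cluster 0 alone the crypt-labelled ratios were 0.06 and 0.49, and that of Hspa1a was 0.05 without cells over 10% mitochondrial UMIs. In villus-labelled goblet-like cells it was higher instead, Hspa1a at 0.74 [0.56, 0.91] and Hspa1b at 0.59 [0.41, 0.77], while in crypt-labelled goblet-like cells, from 13 and 6 UMIs in HFD sham, it was lower at -1.15 [-2.12, -0.28] and -2.56 [-4.04, -1.38]. Immune markers summed to 71.8 CPM in enterocyte-like cells of the LFD sham villus-labelled library and 0.42 CPM in those of HFD sham, and B and plasma cell markers to 22.0 and 0.14 CPM, and their part in the villus-labelled values was not tested. Gm42418 stood in enterocyte-like cells of LFD sham and HFD sham at 63640 and 50898 CPM in the crypt-labelled pair. In the villus-labelled pair it stood at 66066 and 43112 CPM, and its part in the diet values was not tested.

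**Figure D3:**
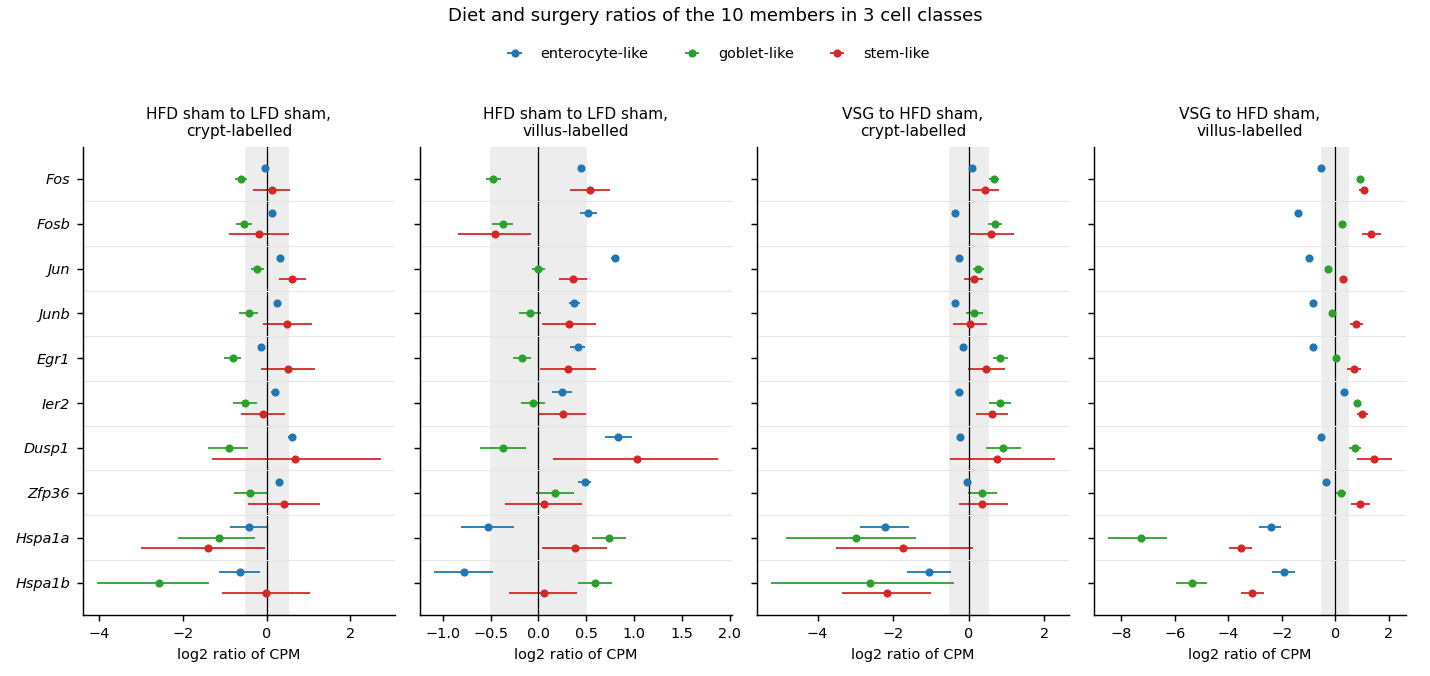
Log2 ratio of CPM for the 10 genes in enterocyte-, goblet- and stem-like cells, in 4 panels for HFD sham against LFD sham and HFD VSG against HFD sham in each preparation, with exact 95% limits and a grey band from -0.5 to 0.5. Axes differ between panels. After VSG the heat shock pair lies far below the band in the villus-labelled panel, to -7.28 for Hspa1a in goblet-like cells.

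Surgery was compared as HFD VSG against HFD sham, and since the HFD sham libraries serve in both comparisons the values of diet and surgery are not independent. Over all classes, 38 of 93 pairs of gene and class in the villus-labelled comparison were more than 0.5 higher after VSG, against 15.2% of all gene and class pairs counted, and 31 were more than 0.5 lower, against 27.3%. The lower pairs included all 12 heat shock pairs counted. Of these, 10 reached the minimum of 50 UMIs in both libraries, from -1.93 to -3.74, while both goblet-like pairs passed it only through the HFD sham library. Of the immediate early pairs 38 of 81 were higher and 19 lower, the latter a share below the background. In the crypt-labelled comparison 13 of 79 were higher, against 12%, a share near the background, and 18 lower, against 4.03%. Of the 18 lower pairs, 2 were heat shock and 16 immediate early pairs. Of the 16, Paneth-like cells gave 6, EEC-like cells 4, cluster 1 gave 4 and enterocyte-like cells none. In Paneth-like cells (26 and 35 cells) all 8 immediate early genes were lower beyond counting error (median -1.62), against 200 of 611 genes counted. Of these 8, 6 had enough UMIs to be counted. In the villus-labelled pair 5 of 7 members counted in this class were more than 0.5 higher and none lower, against 8.98% and 54.2%. In enterocyte-like cells of the villus-labelled pair, 7 of 8 immediate early genes were lower after VSG beyond counting error (median -0.68), against 35.6% of all genes counted in these cells lower and 34.9% higher, Fosb by -1.38 [-1.47, -1.30], Jun by -0.99 [-1.03, -0.96], Egr1 by -0.83 [-0.89, -0.76] and Fos by -0.53 [-0.56, -0.50]. Ier2 alone was higher, by 0.33 [0.25, 0.41], but in 3 of 5 enterocyte-like clusters only, and in cluster 0 it stood at -0.03 [-0.15, 0.08]. The crypt-labelled pair gave smaller values, 6 lower and 1 higher (median -0.24), against 10.8% and 37.8% of all genes, with Jun at -0.26 and Ier2 at -0.27. The higher gene was Fos (0.09 [0.06, 0.12]), which turned to -0.15 with free RNA subtracted, to -0.26 without cells over 10% mitochondrial UMIs and to -0.02 with median-of-ratios scaling. The 10 members had a median of -0.83 in the villus-labelled and -0.26 in the crypt-labelled pair, against -0.00 and 0.12 over all genes counted in these cells. Egr1 was lower in 5 of 5 enterocyte-like clusters of the villus-labelled pair, while Fos was lower in 4 and higher in 1. Cluster 2, which is outside this class, ran the other way in the crypt-labelled pair, with 7 of 8 immediate early genes higher and none lower (median 0.53). Of the 6751 genes counted there, 3364 were higher and 330 lower (median 0.35).

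Stem-like and cycling progenitor-like cells, the dividing cells of the epithelium, ran opposite to the enterocytes in the villus-labelled pair. All 8 immediate early genes were higher after VSG in each, with medians of 0.97 in stem-like and 1.14 in cycling progenitor-like cells, against 10.8% and 11.9% of all genes counted in these classes, of which 36.1% and 36% were lower. In stem-like cells Fos went from 211 to 443 CPM (1.07 [0.90, 1.25]), Fosb from 54.0 to 138 CPM (1.36 [1.02, 1.71]) and Ier2 from 139 to 280 CPM (1.01 [0.80, 1.23]). Jun moved least of these, from 426 to 527 CPM (0.31 [0.18, 0.43]). The median over all genes counted in stem-like cells was -0.26. In the crypt-labelled pair 3 of 8 were higher in stem-like cells, against 12.3%, and none lower, against 6.04% (median 0.45), from 44 and 126 cells. That median was 1.29 [0.37, 2.37] with free RNA subtracted at the stated fractions.

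After thinning to 3000 UMIs, Fos was found in 57.5% of stem-like cells of the HFD VSG villus-labelled library and in 31.5% of those of HFD sham (unthinned 92.7% and 54.4%, at median depths of 29283.5 and 11522.5 UMIs). The same library held Fos in 60.0% of enterocyte-like cells after thinning, against 73.0% in HFD sham. The levels of both classes thus lay close in HFD VSG villi (482 CPM of Fos in enterocyte-like and 443 CPM in stem-like cells) and apart in HFD sham villi (695 and 211 CPM). Droplets of HFD VSG villi held Fos at 339 CPM against 263 CPM in HFD sham villi, and with free RNA subtracted at the stated fractions the stem-like Fos ratio was 1.15.

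Goblet-like cells also held more of several immediate early genes after VSG. In the villus-labelled pair Fos was higher by 0.94 [0.86, 1.01] and Ier2 by 0.84 [0.73, 0.94], while Egr1 did not differ beyond counting error (0.04 [-0.05, 0.13]) and Jun was lower (-0.26). Of the 10 members, 3 were more than 0.5 higher and 2, the heat shock pair, more than 0.5 lower. Among all genes counted in these cells the shares were 5.70% and 26.8%. In the crypt-labelled pair 6 of 8 were higher, against 12.4% of all genes, and none lower, against 8.15% (median 0.68), Fos by 0.67 [0.53, 0.81] and Ier2 by 0.82 [0.54, 1.11]. Ier2 was higher after VSG in 11 of 11 classes and clusters counted in the villus-labelled pair, by 0.33 to 1.48. Over all gene and class pairs counted in this comparison, 15.2% were more than 0.5 higher and 27.3% more than 0.5 lower. The enterocyte-like clusters were counted there together, and Ier2 was higher in 3 of 5 of them. Ier2 was counted by its mean of at least 50 UMIs, which 1 library alone can carry. Its level in the droplets was 254 CPM in HFD VSG villi and 107 CPM in HFD sham villi, in the same direction as the classes. With free RNA subtracted at the stated fractions the Ier2 ratio was 0.33 in enterocyte-like, 0.69 in goblet-like and 0.95 in stem-like cells.

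Hspa1a and Hspa1b were lower after VSG in each villus-labelled class or cluster with enough UMIs. In the villus-labelled pair Hspa1a was lower beyond counting error in 6 of 6 classes and clusters counted, with log2 ratios from -2.15 to -7.28, and Hspa1b in 6 of 6, from -1.93 to -5.36, against 37.1% of all gene and class pairs counted. In the crypt-labelled pair each gene was counted in enterocyte-like cells alone, Hspa1a at -2.22 and Hspa1b at -1.05, both lower beyond counting error, against 8.99%. Hspa1a reached the minimum there only through HFD sham, from 70 UMIs in HFD sham and 30 in HFD VSG, while Hspa1b had 52 and 50. The crypt-labelled Hspa1b value was -0.24 [-1.02, 0.59] with free RNA subtracted at the stated fractions and 1.24 without cells over 10% mitochondrial UMIs. In villus-labelled goblet-like cells, where the pair reached the minimum only through HFD sham, Hspa1a stood at -7.28 [-8.50, -6.30] and Hspa1b at -5.36 [-5.96, -4.81], and cycling progenitor-like cells stood at -3.74 and -3.40, stem-like cells at -3.54 [-3.97, -3.12] and -3.11 [-3.54, -2.68]. In enterocyte-like cells, where the pair was no higher than in droplets, the ratios were -2.42 [-2.85, -2.01] and -1.93 [-2.37, -1.51], and with free RNA subtracted at the stated fractions -1.55 [-2.04, -1.07] and -0.40 [-0.98, 0.19]. In crypt-labelled goblet-like cells Hspa1a was lower by -2.98 [-4.82, -1.40], from 13 and 5 UMIs. The droplets moved too, with the summed pair at 67.0 CPM in HFD sham and 11.2 CPM in HFD VSG villi, and at 10.4 and 4.57 CPM in the crypt-labelled libraries.

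The villus-labelled libraries of this comparison also differed in quality: in enterocyte-like cells the median depth was 14745 UMIs in HFD sham and 34371 UMIs in HFD VSG, and the median mitochondrial share 11.6% and 9.60%. Gm42418, a transcript that overlaps ribosomal RNA, stood at 43112 and 9491 CPM in the same cells, and immune markers summed to 0.42 and 41.1 CPM. Both red cell markers listed had no UMI in enterocyte-like cells of HFD sham villi and summed to 59.8 CPM in those of HFD VSG villi. In enterocyte-like cells of the crypt-labelled pair Gm42418 also differed, at 50898 CPM in HFD sham and 14020 CPM in HFD VSG. Median depth there was 13495 and 17676 UMIs, and the median mitochondrial share 11.8% and 12.7%. The part of these differences in the VSG values of either pair was not tested, and with 1 library per group surgery and library cannot be told apart.

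The preparations were compared last, as the crypt-labelled against the villus-labelled library of the same pool. Counted over classes, 34 of 102 pairs of gene and class were more than 0.5 higher in the crypt-labelled library of LFD sham, against 8.4% of all gene and class pairs, and 19 lower, against 14.2%. In HFD sham 24 of 82 were higher, against 5.32%, and 14 lower, against 10.2%. In HFD VSG 33 of 101 were higher, against 25%, and 20 lower, against 16.3%, both nearer to the background. Heat shock pairs gave 15 of the 19 lower pairs in LFD sham, 12 of the 14 in HFD sham and 3 of the 20 in HFD VSG, and none of the higher ones. Immediate early pairs were lower in 4 of 86, 2 of 70 and 17 of 95, in LFD sham and HFD sham a share below the background. Of all heat shock pairs counted, 8 of 16 in LFD sham, 2 of 12 in HFD sham and 1 of 6 in HFD VSG reached 50 UMIs in both libraries. The others passed through 1 library. Enterocyte-like cells held more Fos and Fosb in the crypt-labelled library in all 3 groups, Fos at 0.71 [0.67, 0.75], 0.22 and 0.83 and Fosb at 0.97, 0.59 and 1.62 [1.55, 1.69] in LFD sham, HFD sham and HFD VSG. Junb and Dusp1 followed, Dusp1 at 0.66, 0.42 and 0.71. Jun did not, with 0.12, -0.36 [-0.39, -0.32] and 0.38, and it was lower in 5 of 5 enterocyte-like clusters of HFD sham. Ier2 differed by no more than counting error in LFD sham (-0.05 [-0.15, 0.05]) and HFD sham (-0.08 [-0.18, 0.01]) and was lower in the crypt-labelled library of HFD VSG (-0.68 [-0.75, -0.61]), in 5 of 5 enterocyte-like clusters.

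**Figure D4:**
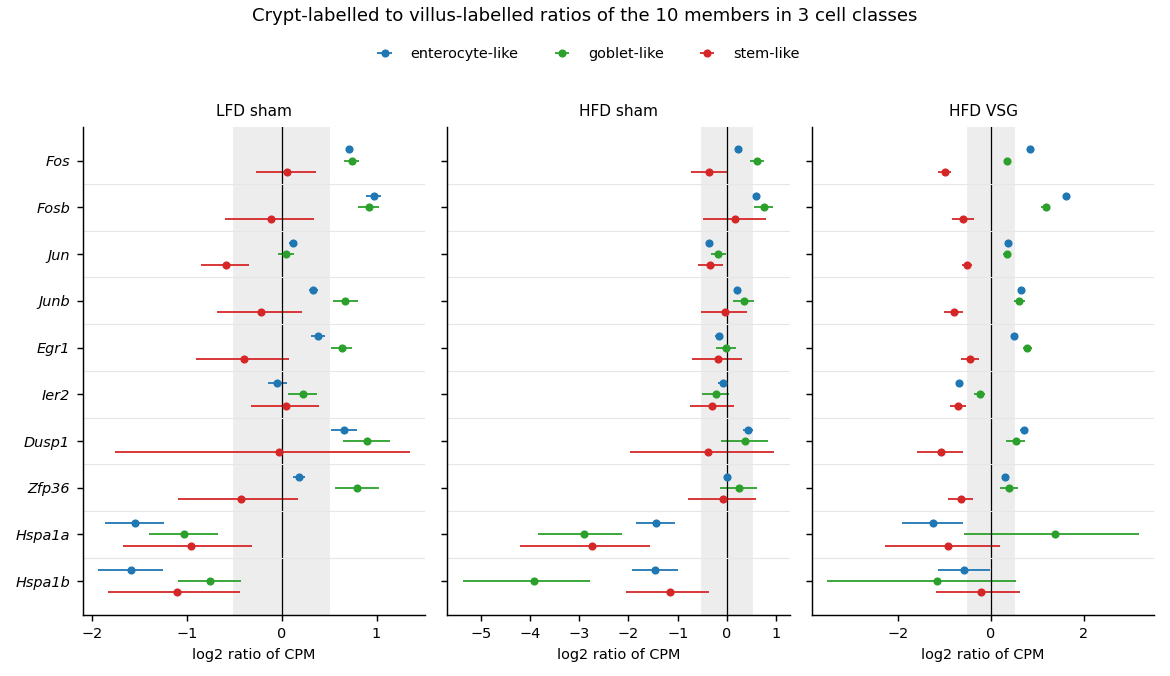
Log2 ratio of CPM, crypt-labelled against villus-labelled library of the same mice, for the 10 genes in enterocyte-, goblet- and stem-like cells, 1 panel per group, with exact 95% limits and a grey band from -0.5 to 0.5. Axes differ between panels. Hspa1a and Hspa1b lie below 0 in enterocyte-like cells of all 3 groups, and the 8 immediate early genes lie below 0 in stem-like cells of HFD VSG.

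EEC-like cells gave the same direction with larger values than enterocyte-like cells, 8 of 8 immediate early genes higher in the crypt-labelled library of each group, with medians of 0.82, 1.47 and 1.13 in LFD sham, HFD sham and HFD VSG, against 16.2%, 18.9% and 16.4% of all genes counted in these cells, with 27.7%, 39.8% and 34.8% lower. Goblet-like cells had 7 of 8 higher in LFD sham (median 0.71), against 12.2% of all genes higher and 28.7% lower, 3 of 8 higher and 1 lower in HFD sham (median 0.29), against 8.93% and 15.8%, and 7 higher and 1 lower in HFD VSG (median 0.46), against 30.6% and 16.6%. Stem-like cells of HFD VSG again ran against these, with 8 of 8 lower in the crypt-labelled library (median -0.67), against 8.77% of all genes lower and 34% higher (median 0.22), Fos by -0.99 [-1.14, -0.85] and Ier2 by -0.70. In stem-like cells of LFD sham 1 of 8 was lower, against 4.9%, and none higher, against 3.51% (median -0.17). In those of HFD sham, 2 of 8 members counted were more than 0.5 lower and none higher, against 10.7% and 4.42% of all genes. Those 2 were the heat shock pair, which passed the minimum only through the villus-labelled library. None of the immediate early genes counted there lay beyond 0.5 in either direction. The median of the members was -0.32, against -0.11 over all genes.

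The heat shock pair was higher in the villus-labelled library of all 3 groups in enterocyte-like cells, Hspa1a with crypt-to-villus log2 ratios of -1.55 [-1.87, -1.24], -1.45 [-1.86, -1.05] and -1.24 [-1.92, -0.60] and Hspa1b with -1.59 [-1.93, -1.26], -1.45 [-1.93, -0.99] and -0.57 [-1.13, -0.02] in LFD sham, HFD sham and HFD VSG. In HFD VSG neither gene kept this direction within cluster 0 alone (0.05 and 0.57), nor did Hspa1b with cells over 10% mitochondrial UMIs left out (0.31). Goblet-like cells of HFD sham stood at -2.91 [-3.83, -2.13] for Hspa1a and -3.91 [-5.36, -2.78] for Hspa1b. The droplets held the summed pair at 21.0, 10.4 and 4.57 CPM in the crypt-labelled and 84.9, 67.0 and 11.2 CPM in the villus-labelled libraries, the same direction in each group. Immune markers summed in enterocyte-like cells to 6.93, 6.22 and 3.57 CPM in the crypt-labelled and 71.8, 0.42 and 41.1 CPM in the villus-labelled libraries. They were thus higher in the villus-labelled library of LFD sham and HFD VSG but not of HFD sham, and their part was not tested. Hspa1a was lower in the crypt-labelled library in 8 of 8 classes and clusters counted in LFD sham, 6 of 6 in HFD sham and 1 of 2 in HFD VSG, against 20.7%, 19.2% and 23.1% of all gene and class pairs counted, and most of these reached the minimum through the villus-labelled library alone. With free RNA subtracted at the stated fractions the enterocyte-like Hspa1a ratios were -1.46, -0.63 and -1.23 and those of Hspa1b -1.50, -0.74 [-1.58, 0.05] and -0.58. Tuft-like cells of LFD sham, which sense luminal signals, held more Hspa1b in the crypt-labelled library (1.77), at 110 CPM in 32 cells, with too few UMIs to be counted.

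The 3 pools allowed the preparations to be tested in 1 fit per class over all genes, with the pool as a block and 2 residual degrees of freedom (edgeR's quasi-likelihood test, Benjamini-Hochberg adjustment). The pools differ in diet and surgery, so their spread includes any difference of the preparation between groups. In enterocyte-like cells 5 of 10 members passed an adjusted p of 0.05, against 15.3% of all genes tested. Fosb (log2 difference crypt minus villus 1.09 ± 0.18 SE, adjusted p = 0.0077), Dusp1 (0.63 ± 0.12, adjusted p = 0.012) and Fos (0.62 ± 0.16, adjusted p = 0.033) were higher in the crypt-labelled libraries. Hspa1a (-1.39 ± 0.17, adjusted p = 0.0030) and Hspa1b (-1.22 ± 0.21, adjusted p = 0.0093) were lower. Jun (0.08 ± 0.16) and Ier2 (-0.24 ± 0.17) did not pass, with adjusted p of 0.77 and 0.34.

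In EEC-like cells 8 members could be tested and all 8, the immediate early genes, were higher in the crypt-labelled libraries, against 8.5% of all genes called in either direction, led by Fosb (2.16 ± 0.23, adjusted p = 2.6e-05). Goblet-like cells had 7 of 10 called, against 11.4%, with Fosb at 1.01 ± 0.17 (adjusted p = 0.00014) and Hspa1a at -1.35 ± 0.30 (adjusted p = 0.0040). In stem-like cells Hspa1a alone passed (-1.44 ± 0.29, adjusted p = 0.0022), against 1.46% of all genes, and in cycling progenitor-like cells Hspa1a and Hspa1b (-1.33 ± 0.26 and -1.23 ± 0.25), against 1.37%. In stem-like cells 9 members had an unadjusted edgeR p under 0.05, against 722 of 9342 genes. There all 8 immediate early genes were lower in the crypt-labelled libraries, from -0.36 (Fosb) to -0.98 (Dusp1), and none of the 8 passed after adjustment. No member passed in Paneth-like cells by edgeR or DESeq2, against 4.93% of all genes in edgeR, with 3 members at an unadjusted p under 0.05. Without the LFD sham pool the number of members called fell to 3 in enterocyte-like, 3 in goblet-like and 2 in EEC-like cells. Without the HFD sham pool goblet-like cells had 1 call and stem- and cycling progenitor-like cells 0, and without the HFD VSG pool EEC-like cells had 3. The heat shock values run with the droplets of the same libraries, and free RNA was not subtracted in this fit.

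Other genes of the response were followed through a wider list of 45 immediate early genes and one of 26 heat shock genes in enterocyte-like cells. On the high-fat diet 7 of 35 counted immediate early genes of the list were more than 0.5 higher and 2 lower in the crypt-labelled pair, against 5.17% and 6.22% of all genes counted, and 10 of 34 higher and 2 lower in the villus-labelled pair, against 5.70% and 6.62%. Atf3, a stress-induced CREB family factor, was higher in both (0.74 and 0.83), and Klf2 turned direction (1.42 and -1.66). After VSG none was higher and 21 of 33 were lower in the villus-labelled pair, against 18.8% and 15.6% of all genes, with a list median of -0.63. They included the phosphatase gene Dusp6 (-2.10), Ifrd1 (-1.91) and Sgk1 (-1.75), a kinase known for its control of sodium transport. In the crypt-labelled pair 8 of 35 were lower and none higher, against 2.28% and 6.92%, with a list median of -0.24.

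The wider heat shock list had no common direction after VSG. In villus-labelled enterocyte-like cells 4 of 20 counted genes were more than 0.5 higher and 2 lower (median -0.05), against 18.8% and 15.6% of all genes, among them the mitochondrial chaperonin genes Hspe1 (1.13) and Hspd1 (0.58) and the Hsp90 gene Hsp90ab1 (0.71) on the higher side and the Hsp40 genes Dnajb4 (-0.89) and Dnajb1 (-0.62) on the lower. In the crypt-labelled VSG pair 1 of 21 was higher and none lower (median -0.03), against 6.92% and 2.28% of all genes. On the high-fat diet none of 19 was higher in either pair and 2 and 1 were lower in the crypt- and villus-labelled pairs, near the 6.22% and 6.62% of all genes. Hsph1, which exchanges nucleotide on Hsp70, was lower in both, by -1.51 and -2.05. Between preparations, 9 of 19 genes of the list were lower in the crypt-labelled library of LFD sham and none higher (median -0.47), against 11.1% and 4.83% of all genes. In HFD sham 4 of 20 were lower and none higher (median -0.38), against 8.22% and 3.64%. In HFD VSG 7 of 21 were lower and 3 higher (median -0.37), against 20.5% and 21.9%. Hspe1, Hspd1 and Hsph1 were lower in all 3 groups, Hspe1 by -1.17, -0.79 and -2.11.

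Outside the members, the genes whose level ran most like that of Fos over the 72 class and library sums were Atf3 (Pearson r 0.886), Trib1 (0.844) and Errfi1 (0.789), on the scale of log2(CPM + 10) and among 9569 genes. Of the members, Fosb (0.843), Jun (0.805), Dusp1 (0.804) and Zfp36 (0.804) ran close to Fos, Ier2 less so (0.43) and Hspa1a not (-0.203). Jun ran, among genes outside the members, with Trib1 (0.845), Atf3 (0.826) and Rhob (0.794). Hspa1a ran with Hspa1b (0.901), then Hsph1 (0.631), Pdia4 (0.613) and Gm43305 (0.609). The sums share libraries and free RNA, so these values describe likeness only.

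Within enterocyte-like cells Fos and Jun were found in most cells and the heat shock genes in few. After thinning to 3000 UMIs, Fos was present in 80.3%, 78.8% and 82.8% of cells of the crypt-labelled libraries and 63.1%, 73.0% and 60.0% of those of the villus-labelled libraries (unthinned 94.9%, 94.0% and 97.5%, then 83.9%, 91.9% and 92.4%). Jun was found in 55.1% to 78.7% over the 6 libraries, Junb in 47.5% to 65.8%, Zfp36 in 38.1% to 53.1%, Fosb in 12.6% to 40.0%, Egr1 in 20.6% to 32.1%, Ier2 in 19.0% to 26.7% and Dusp1 in 9.54% to 19.4%, while Hspa1a and Hspa1b were found in at most 4.63% and 3.12%. The 1% of cells with the most Fos held 3.37% to 7.38% of its UMIs. That of Hspa1a held 25.2% to 83.3%, but genes of like total are also held by few cells, with a median of 75.9% in HFD VSG crypts, where Hspa1a had only 30 UMIs and the value of 83.3%. In HFD sham villi the top 1% held 37.6% of Hspa1a UMIs, against a median of 14.9% for genes of like total. Hspa1b in HFD VSG lay near its like genes (50% against 47.8% in crypts and 26.9% against 23.2% in villi), but the top 1% held 65.6% of Hspa1a UMIs in HFD VSG villi, against 23.6%. Fos and Jun ran together between thinned cells (r from 0.192 to 0.421 over the 6 libraries). The r of Hspa1a with Hspa1b was 0.117 to 0.275 in the sham libraries. It was -0.004 and -0.003 in HFD VSG crypts and villi, where Hspa1a had 30 and 64 UMIs before thinning. The median r of Fos with Hspa1a was 0.002. Few cells kept a heat shock UMI after thinning, so these low values say little about whether the genes run together.

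The share of mitochondrial UMIs, a common sign of damaged cells, ran with the summed level of the set but not with each member. In enterocyte-like cells the 10 genes summed, in CPM with mitochondrial UMIs left out of the total, were higher in each next bin of mitochondrial share in 4 of 6 libraries: from 2385 to 3080 in LFD sham crypts, from 1863 to 2748 in LFD sham villi, from 2980 to 3213 in HFD sham crypts and from 2370 to 3269 in HFD VSG crypts. In HFD sham villi the first and last bins held 2508 and 2832 and in HFD VSG villi 1780 and 2518, with no steady order between. Ier2 fell in each next bin in LFD sham crypts and HFD VSG crypts and rose in LFD sham villi. Hspa1a fell in each next bin in LFD sham villi (24.4 to 14.9) and HFD VSG villi (15.5 to 0.57). It rose in HFD sham crypts (3.46 to 8.10) and HFD VSG crypts (0.59 to 1.65). The median mitochondrial share of enterocyte-like cells was 13.2%, 11.8% and 12.7% in the crypt-labelled and 12.7%, 11.6% and 9.60% in the villus-labelled libraries. With cells over 10% left out, the median log2 ratio of the 10 members in enterocyte-like cells was 0.27 (crypt-labelled) and 0.50 (villus-labelled) for diet and -0.32 and -0.95 for surgery.

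**Figure D5:**
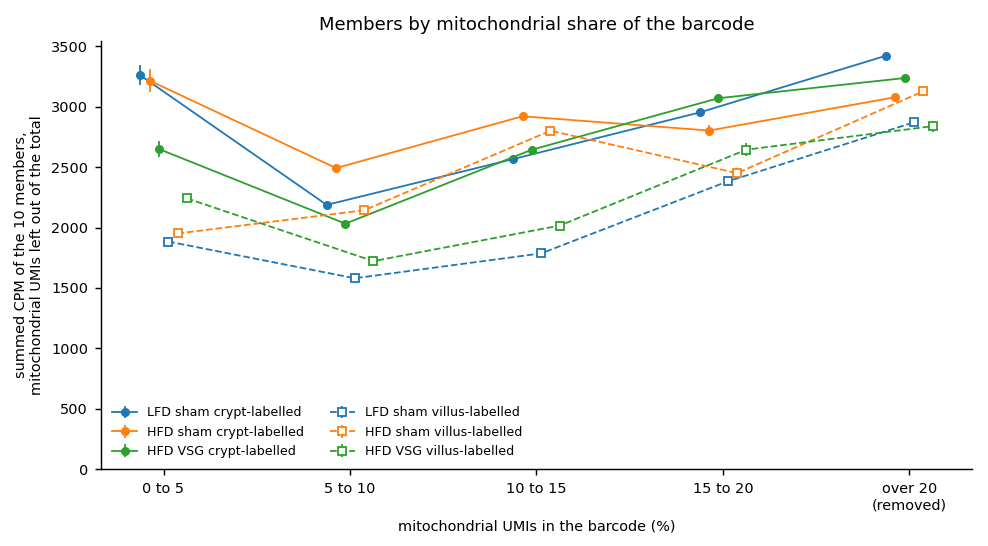
Summed CPM of the 10 genes, mitochondrial UMIs left out of the total, by bin of mitochondrial share (0 to 5, 5 to 10, 10 to 15, 15 to 20 and over 20%, the last removed from all other values), for all barcodes with enough genes in each of 6 libraries. The bin over 20% lies between 2838 and 3420 in the 6 libraries.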

How the data were processed

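Single-cell RNA was measured in 6 libraries of jejunal epithelium, each pooled from 2 or 3 mice and each the only library of its group and preparation. The values deposited by the authors were raw UMI counts, whole numbers with no scaling, in a matrix of all barcodes and one of the barcodes called as cells by Cell Ranger 6.0.0 on mm10; the study's own free RNA correction and annotation were not used here. Gene positions are those of GENCODE vM21, which held 32158 of the 32285 gene IDs.

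From the deposited counts, doublets were scored against simulated pairs (scikit-learn 1.9.0) and 4794 barcodes removed. Barcodes with fewer than 750 genes (15963 of those called) or over 20% mitochondrial UMIs (25427) were left out, the groups overlapping. Integration used sctransform 0.4.2 in Seurat 5.3.0 (2000 features, 30 components, resolution 0.4), with 103 genes of the set and its lists left out. Clusters were named from fixed markers among their 10 leading genes and by marker counts. UMIs were summed per class and library of at least 20 cells and divided by the sum's total (CPM). Limits are exact (Poisson, binomial, or binomial for the share of pooled UMIs in a ratio) at 95%. Sums below 3 UMIs were set to 3 in ratios. A gene and class pair was counted when it had a mean of at least 50 UMIs. Levels were set against droplets by the same limits of a ratio. For crypt- against villus-labelled libraries, class sums were fitted with edgeR 4.0.16 (TMM, filterByExpr, pool as block), with DESeq2 1.42.0 as an alternative; this test was added after the data were seen. Cells were thinned to 3000 UMIs without replacement. Steps were tested on simulated data.

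The members and the wider lists were chosen with earlier results of these data known. Besides the 10 members, the 3 highest and 3 lowest ratios beyond 0.5 of each wider list were eligible to be named, with the 3 genes most like Fos, Jun and Hspa1a; some of these are named. A list of upstream genes is not reported here. Alternatives were other filters, scalings, free RNA subtractions, clusterings and thinnings. Intervals and floors cover counting error only, since reads within a library share one pool of mice.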

Additional observations from a re-analysis of the deposited data

Results flagged for a closer look

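In enterocyte-like cells 2 genes moved in opposite directions with diet in the crypt-labelled and villus-labelled pairs. The HFD sham to LFD sham log2 ratio of Fos was -0.046 in the crypt-labelled and 0.45 in the villus-labelled pair, and that of Egr1 was -0.14 and 0.41. After VSG the HFD VSG to HFD sham ratio of Fos was 0.090 in the crypt-labelled and -0.53 in the villus-labelled pair, while that of Ier2 was -0.27 and 0.33. The crypt-labelled values of Fos and Egr1 changed sign under some alternatives, and the villus-labelled Ier2 value was -0.034 within cluster 0. With 1 library per group the difference between the pairs was not tested.

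Barcodes left out for over 20% mitochondrial UMIs also held the 10 genes. Their summed level in CPM with mitochondrial UMIs left out of the total was 3420.21 in LFD sham crypts, 3077.29 in HFD sham crypts and 3235.55 in HFD VSG crypts, and 2869.88 in LFD sham villi, 3126.61 in HFD sham villi and 2837.53 in HFD VSG villi. The kept cells held 2621, 2812 and 2596 in the crypt-labelled and 1802, 2462 and 1858 in the villus-labelled libraries, lower than the removed barcodes in 6 of 6 libraries. Barcodes with fewer than 750 genes held 1210 to 2357. These levels sum over all cell types, whose mix was not resolved in the removed barcodes.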

How the results depend on the processing

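The median log2 ratio of the 10 members in enterocyte-like cells kept its direction under every alternative run in 6 of the 7 comparisons. Between preparations of HFD sham it lay near 0 and turned from -0.04 to 0.002 with the stated free RNA fractions and to 0.026 with median-of-ratios scaling. Main medians were 0.17 and 0.43 for diet (crypt- and villus-labelled), -0.26 and -0.83 for surgery, and 0.26, -0.04 and 0.44 for crypt against villus in LFD sham, HFD sham and HFD VSG. With free RNA subtracted at the fractions the study states they moved to 0.30 and 0.55 for diet and -0.38 for surgery (crypt-labelled), and with a fraction of 0.1 to -0.92 for surgery (villus-labelled). With at most 10% mitochondrial UMIs they were 0.27 and 0.50 for diet, -0.95 for surgery (villus-labelled) and 0.51 between preparations of HFD VSG. Median-of-ratios scaling gave -0.38 for surgery (crypt-labelled), and leaving out members under 50 UMIs gave 0.51 between preparations of HFD VSG. In alternatives chosen after seeing the data, cluster 0 alone gave 0.52 for diet (villus-labelled), -0.35 and -0.91 for surgery and 0.33 and 0.53 between preparations of LFD sham and HFD VSG, and leaving out the Ada and Nt5e cluster gave 0.39 for the last. The cause was not tested.

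Among single genes of the enterocyte-, goblet- and stem-like classes whose ratio lay beyond its counting limits, 16 values turned sign. With free RNA subtracted at the stated fractions Fos turned to 0.20 and Egr1 to 0.093 for diet and Fos to -0.15 for surgery (enterocyte-like, crypt-labelled), and Jun to 0.038 for diet (goblet-like, crypt-labelled). With at most 10% mitochondrial UMIs Fos turned to 0.26 and Hspa1a to 0.054 for diet and Fos to -0.26 and Hspa1b to 1.24 for surgery (crypt-labelled), and Hspa1b to 0.31 between preparations of HFD VSG. Median-of-ratios scaling turned Fos to -0.022 for surgery (crypt-labelled) and goblet-like Junb to 0.12 (villus-labelled). Within cluster 0 Hspa1a turned to 0.063 and Hspa1b to 0.49 for diet (crypt-labelled), Ier2 to -0.034 for surgery (villus-labelled), and Hspa1a to 0.051 and Hspa1b to 0.57 between preparations of HFD VSG. Of the other single values, 350 moved beyond their counting limits and 2023 did not.

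Shares of enterocyte-like cells with any member depend on depth: thinned to 3000 UMIs they were 95.8%, 97.2% and 98.3% in crypt-labelled and 89.5%, 97.0% and 91.0% in villus-labelled libraries of LFD sham, HFD sham and HFD VSG. At 1500 UMIs they were 89.2%, 91.9% and 93.0%, then 80.4%, 89.6% and 81.6%, and without thinning 99.6%, 99.8% and 100%, then 98.6%, 99.5% and 99.6%.

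For the preparations the pool served as the block, since both libraries of a pair come from the same mice. In the fit with no replicate block the members called went from 5 to 0 in enterocyte-like, 7 to 1 in goblet-like, 8 to 4 in EEC-like, 2 to 0 in cycling progenitor-like and 1 to 0 in stem-like cells. DESeq2 called 3 in goblet-like and 0 in cycling progenitor-like cells, and fitting all genes with any UMI called 3 in stem-like cells. Leaving out 1 pool gave 3 to 6 in enterocyte-like, 1 to 7 in goblet-like, 2 to 6 in EEC-like, 0 to 3 in stem-like and 0 to 3 in cycling progenitor-like cells. This fit and its alternatives were chosen after seeing the data. No paired analysis was possible because each diet and surgery group is 1 pool, for the comparisons between groups. Mice within a pool cannot be told apart. The free RNA fractions behind the subtraction were not tested here.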
